A study of Drosophila melanogaster with 3 samples.

Results

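The genes of the translation initiation factors (eIF) and elongation factors (eEF) of Drosophila melanogaster were examined for binding of Su(H), Suppressor of Hairless, the transcription factor that recruits the Notch receptor's intracellular part to DNA. They were taken as all protein-coding genes of the Ensembl annotation of the dm6 assembly whose symbol starts with eIF or eEF, which gave 52 of 13945 protein-coding genes. The rule used names only and no measured value. Chromatin immunoprecipitation and sequencing (ChIP-seq) had been done on 3 biological replicates of 1 group, and its peak lists were used. The replicates were whole embryos, 0 to 24 h old, males and females pooled, of a transgenic Su(H)-GFP line that stably makes Su(H) with green fluorescent protein at its C-terminus. The antibody was directed against GFP, although 1 label field names Su(H), and chromatin was sonicated to 200 to 800 bp. There was no second genotype, stage or treatment, so no contrast between groups could be made, and the control library was not analysed here. Binding in few cells of the embryo and weak binding in many cannot be told apart in whole embryos. The sources used here give neither the promoter that drives the fusion nor the number of insertion lines.

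Initiation factors bring the small ribosomal subunit, the initiator tRNA and the mRNA together, find the start codon and let the large subunit join. Elongation factors then deliver each aminoacyl-tRNA, move the ribosome along and help it past difficult stretches. Nearly every cell needs most of these proteins, and many of their genes are housekeeping genes with compact promoters, while some duplicated copies are known from the male germ line. Notch signalling is best known in the embryo for cell fate decisions in the nervous system, mesoderm and gut, where Su(H) acts on enhancers as well as promoters.

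Of the 52 factor genes, 19 (36.5%) had a thresholded Su(H)-GFP summit within 500 bp of an annotated transcription start, against 19.4% of all protein-coding genes. The thresholded list holds 3833 peaks of a pooled list of 30000, and the authors set it by agreement between replicates. These are exactly the 3833 peaks of highest signal in the pooled list, so single kept peaks can differ between replicates. A summit is the highest point of a peak. Counting summits anywhere in the gene or within 2 kb of it gave 25 genes (48.1%), against 33.0% of all genes. In the pooled list, which includes background by design, 34 factor genes (65.4%) had a promoter summit, against 54.4% of all genes. The share stood above that of all genes, which include the factor genes, in both lists. No test was made of these shares, since neighbouring genes share peaks and the genes are not replicates, so nothing particular to the set is read from them.

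The 3 replicate lists of 30000 peaks each gave similar counts. Replicate 1 had a promoter summit at 35 factor genes (67.3%), against 51.4% of all genes. Replicate 2 had one at 36 (69.2%), against 53.4%, and replicate 3 at 37 (71.2%), against 54.6%. In every list the factor genes were thus above the whole annotation. Among the strongest 3833 peaks of each list, replicate 1 reached 19 factor genes (36.5%), against 19.8% of all genes. Replicate 2 reached 15 (28.8%), against 18.4%, and replicate 3 reached 22 (42.3%), against 19.1%. Replicate 2 thus held the fewest and replicate 3 the most. Across replicates, 30 factor genes (57.7%) had a promoter summit in all 3 lists, against 37.5% of all genes. At the stricter depth of 3833 peaks, 13 (25.0%) did so in all 3, against 12.7%. At the other end, 9 factor genes (17.3%) had no promoter summit in any of the 5 lists, against 30.3% of all genes, and 3 (5.77%) had no summit at all in the gene or within 2 kb, against 7.21%.

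**Figure D1:**
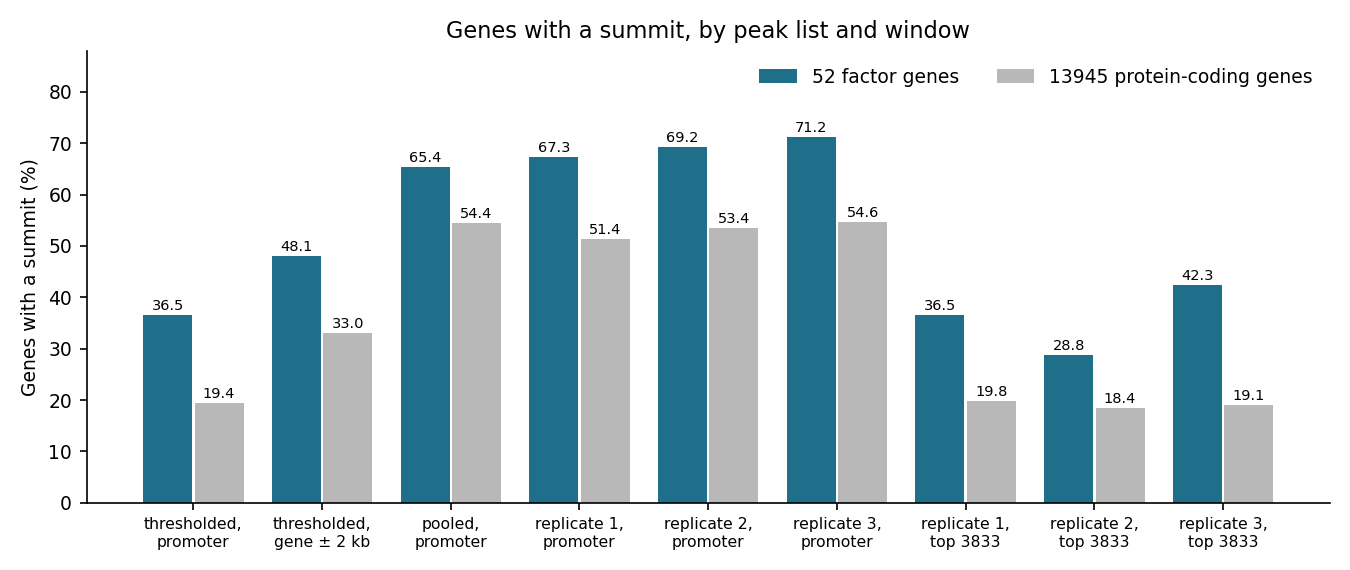
Percentage of genes with a summit in each peak list, for the 52 factor genes (left bar of each pair) and all 13945 protein-coding genes (right bar). The factor genes stand higher in each of the 9 pairs, at 36.5% against 19.4% for thresholded promoter summits.

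The letters under the peaks were read in the dm6 assembly, 100 bp to each side of the 22 thresholded promoter summits of the factor genes, since 3 of the 19 genes have a second such summit. The DNA replication-related element (DRE), TATCGATA, bound by the factor DREF at many housekeeping promoters, lay near 6 of the 22 summits (27.3%, 95% Wilson interval 13.2 to 48.2), against 9.23% of all 2167 thresholded promoter summits (8.08 to 10.5). The genes were eEF1gamma, eIF1, eIF2A, eIF2gamma, eIF3a and eIF6. The stretches around the element are printed for 5 of them, 5′ to 3′ on the strand of the factor gene, because it was the most frequent of the motifs sought; capitals mark the element, and eIF2gamma has 3 copies in 2 stretches.
eEF1gamma: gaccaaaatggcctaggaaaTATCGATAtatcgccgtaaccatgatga
eIF1: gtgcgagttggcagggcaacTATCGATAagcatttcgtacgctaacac
eIF2A: ttactatcgctTATCGATAcaccgcgtaca
eIF2gamma, both upstream copies: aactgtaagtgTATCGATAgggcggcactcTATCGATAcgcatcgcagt
eIF2gamma, copy at the start: gattagagcacTATCGATAggcattgtcgg
eIF3a: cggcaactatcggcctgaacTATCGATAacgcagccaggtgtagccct
These stretches are chr3R:29220111-29220158 (plus strand) for eEF1gamma, chr3L:3223025-3223072 (plus) for eIF1 and chr3L:21824865-21824894 (plus) for eIF2A. They are chr3R:15263517-15263565 and chr3R:15263449-15263478 (both minus) for eIF2gamma and chr3R:4433906-4433953 (minus) for eIF3a. The centre of the element lay 26 bp from the summit at eEF1gamma, 18 bp at eIF2A, 46 bp at eIF3a, 54 bp at eIF1 and 86 bp at eIF6. The 3 copies at eIF2gamma lay 34, 34 and 54 bp from its summit. The eIF1 copy is 292 bp upstream of the eIF1 start, beside the start of RpL28. The element reads the same on both strands, so each match was counted once.

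The Su(H) site itself was sought as its 4 forms CGTGAGAA, CGTGGGAA, TGTGAGAA and TGTGGGAA on both strands. It lay near 2 of the 22 summits (9.09%, 2.53 to 27.8), those of eEF5 and eIF3k, against 3.51% of all thresholded promoter summits. Its centre was 70 bp from the summit at eEF5 and 44 bp at eIF3k. The other 17 genes with a thresholded promoter summit had none of these letters within 100 bp of it, which says only that they are not in that window. GAGAG, the motif of the GAGA factor, lay near 1 summit (4.55%, 0.807 to 21.8), that of eIF3c with 2 copies, against 24.7% of all thresholded promoter summits. Motif 1, the element of the factor M1BP, and the E-box CACGTG lay near 0 of 22 summits, with a Wilson upper bound of 14.9%, against 3.51% and 3.23%. With 200 bp to each side the E-box lay near 4 of the 22 (18.2%), against 6.32%, so its direction depends on the window. No matches of different motifs overlapped around these summits. A match is a description of the letters and not evidence of a bound site.

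**Figure D2:**
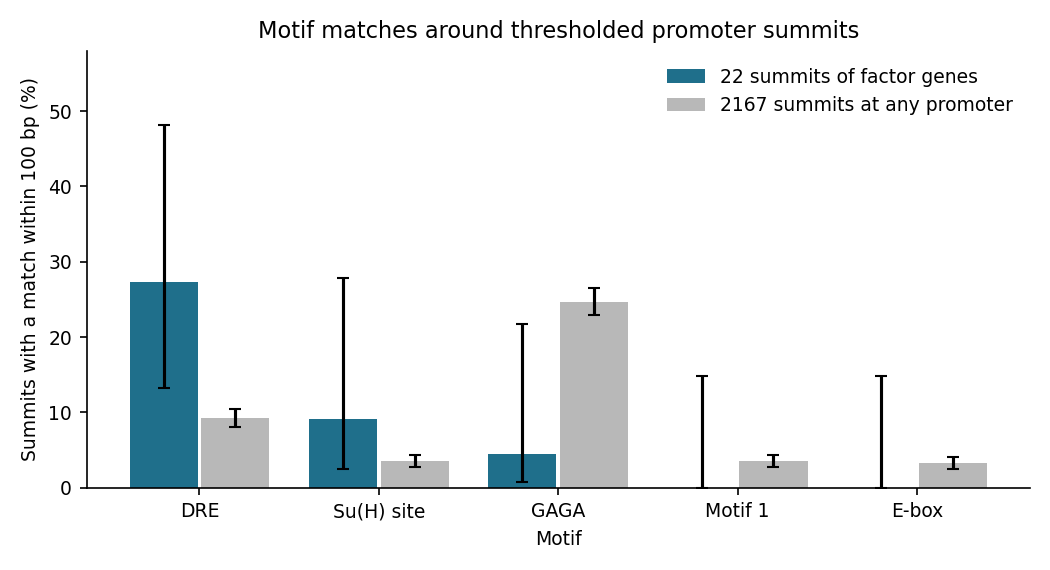
Percentage of thresholded promoter summits with a motif match within 100 bp, for the 22 summits of factor genes (left bar) and the 2167 at any promoter (right bar). Error bars are 95% Wilson intervals, which cover counting error only; the DRE stands at 27.3% against 9.23%, and GAGA at 4.55% against 24.7%.

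Motifs were also counted from 250 bp before to 50 bp after every annotated start, whether or not a peak lay there. The DRE was present in this window at 7 of the 19 factor genes with a thresholded promoter summit (36.8%) and at 8 of the 33 without one (24.2%), against 10.2% of all protein-coding genes. The share with the element was thus above that of all genes in factor genes with and without a peak. A gene was counted if any of its starts had a match, and 38.5% of factor genes had 2 or more starts, against 26.5% of all genes. The part of this in the shares was not tested. The Su(H) site was present at 2 of 19 (10.5%) and 2 of 33 (6.06%), against 4.22% of all genes. GAGAG was present at 6 of 19 (31.6%) and 9 of 33 (27.3%), against 36.3%. These windows held the E-box at 3 of 19 (15.8%) and 2 of 33 (6.06%), against 5.30%, and Motif 1 at 1 of 19 (5.26%) and 3 of 33 (9.09%), against 4.96%. The E-box and Motif 1, found near no summit within 100 bp, were thus present near some starts, such as those of eEF2 and eIF2A for the E-box. The Su(H) site also occurred at the starts of eIF3d2 and eIF4E7, which had no promoter summit in any list.

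A further element of translation genes is the TCT or polypyrimidine initiator, at which ribosomal protein genes of flies and humans start transcription. Its core, a C followed by TTT or TTC within 10 bp of a start on the strand of the gene, occurred at 9 of 19 factor genes with a thresholded promoter summit (47.4%) and 11 of 33 without one (33.3%), against 22.4% of all genes. At the 5'-most start alone the order of the 2 kinds turned round, with 4 of 19 (21.1%) and 10 of 33 (30.3%), against 16.8% of all genes. All 8 eEF genes held the core at 1 or more of their starts, against 7 of 16 eIF3, 2 of 13 eIF4, 1 of 5 eIF2B and 0 of 3 eIF2 genes. Its C lay 6 bp from a start at eEF1alpha2, -9 bp at eEF1delta and 10 bp at eEF1gamma, where negative is upstream. The core counts thus include letters off the start itself, and genes with more starts have more sequence searched. The fuller consensus (a pyrimidine pair, CTTT and another pyrimidine pair within 5 bp of the start), added after the first counts were seen, occurred at eEF2, eIF3f1 and eIF3m, against 0.932% of all genes. At the 5'-most start alone it occurred at 0 of 19 factor genes with a thresholded promoter summit and 1 of 33 without one, against 0.567% of all genes. The 30 bases centred on the start are printed for eEF2 and eIF3f1, the first with a thresholded summit and the second without. For eEF2 this is the inner of its 2 starts. Capitals mark the core.
eEF2: gtcgctgcagcgcctcgctCTTTcctgtcg
eIF3f1: cccgcactatcgataggccCTTTtcttgca
They are chr2L:21682102-21682131 and chr3R:4714168-4714197, both on the minus strand, and in both the C lies 4 bp after the annotated start. The eIF3f1 stretch also holds a DRE before the start.

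The strongest promoter peak of the set belonged to eIF6, whose protein keeps large ribosomal subunits from joining small ones too early and is needed to make them. Its signal was 321, 313 and 396 in replicates 1, 2 and 3 (mean 343 ± 45.7, SD, n = 3), and its peak, chr2R:23850230-23850575, ranked 44 of 30000 in the pooled list. Signal is the value that the authors deposited for each peak, and each replicate value is that of the summit within 200 bp of the pooled one. Whether it was scaled to the depth of a library is not stated, and the lists hold no read depth. All 3 replicates placed the eIF6 summit within 7 bp of the pooled one, 93 bp upstream of its start. The start of an antisense RNA, asRNA:CR45928, lay 64 bp from the same summit, so the peak cannot be given to 1 of these genes. Among the other subunit joining factors, eIF5B, the GTPase that joins the subunits, had 42.9, 47.7 and 59.3 (SD 8.39). Its summit lay between its 2 starts, 145 bp upstream of the inner and 229 bp downstream of the outer one. eIF5, which triggers GTP hydrolysis by eIF2 at the start codon, had a promoter summit only in replicate 2, of signal 21.1.

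Both scanning factors, which hold the small subunit open and check the start codon, had a thresholded promoter peak, against 19.4% of all protein-coding genes. At eIF1 the signal was 129, 90.0 and 135 (118 ± 24.3). That summit lay 347 bp upstream of eIF1 and 34 bp from the start of RpL28, a gene of the large ribosomal subunit, and so nearer to the neighbour. At eIF1A the signal was 73.1, 52.3 and 19.6 (48.4 ± 27.0), at a summit 71 bp upstream of its start and 148 bp from that of Vps39. eIF1A had the widest relative spread of the 18 peaks found in all replicates, with a coefficient of variation of 55.7%, and its low value was in replicate 3. That replicate also had a stronger eIF1A promoter summit, of 39.9, more than 200 bp from the pooled one.

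Peaks at the eIF2 complex, which carries the initiator tRNA, were weak. Only eIF2gamma of the 3 genes had a thresholded promoter summit (33.3%, against 19.4% of all protein-coding genes). Its matched values were 35.1, 35.3 and 38.5 (36.3 ± 1.91), which was the smallest spread of the 18. The summit lay 39 bp upstream of the eIF2gamma start, which the gene shares with Su(var)3-9. More than 200 bp from the pooled summit, replicate 3 had a stronger eIF2gamma promoter summit, of 43.5. eIF2beta had a pooled promoter summit of rank 8024 and eIF2alpha one of rank 18743. None of the 5 genes of eIF2B, which reloads eIF2 with GTP, had a thresholded promoter summit, against 19.4% of all protein-coding genes. The best of them, eIF2Balpha, ranked 6547 with 27.8 and 14.9 in replicates 1 and 2 and no matching summit in replicate 3. That summit lay 374 bp upstream of its start and 284 bp from that of Vps13B, and so nearer to the neighbour. Replicates 1 and 2 also had stronger eIF2Balpha promoter summits, of 39.2 and 23.3. eIF2Bbeta ranked 8229 with 15.2, 23.4 and 22.2, and eIF2Bepsilon ranked 8365 with 28.2, 12.3 and 32.0. The eIF2Bepsilon summit lay 65 bp upstream of its start and 42 bp from that of Ocrl, which was nearer. eIF2Bgamma and eIF2Bdelta had promoter summits in replicates 2 and 3 only, of 14.2 and 15.1 and of 16.6 and 22.2.

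eIF2A and eIF2D are proteins outside the eIF2 complex, known for alternative modes of initiation and, for eIF2D, ribosome recycling. Both had a thresholded promoter peak, against 19.4% of all protein-coding genes. The signal at eIF2A was 55.1, 70.8 and 93.1 (73.0 ± 19.1), and that at eIF2D was 42.8, 18.5 and 49.6 (37.0 ± 16.4). The eIF2D summit lay 40 bp upstream of its single start. The eIF2A summit lay between its 2 starts, 68 bp upstream of the inner and 157 bp downstream of the outer one. The eIF2D value of replicate 2 ranked 12590 in its list, outside the strongest 3833.

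Of the 16 genes of eIF3, the large scaffold on the small subunit, 5 had a thresholded promoter peak (31.2%, against 19.4% of all protein-coding genes). eIF3h, a regulatory subunit, had 157, 127 and 168 (150 ± 21.1), with a summit 282 bp downstream of the nearest of its 2 starts and within 6 bp of the pooled one in every replicate. A second eIF3h summit, 72 bp downstream of the same start and 135 bp from that of senju, had 75.1, 90.4 and 61.9 (75.8 ± 14.3). eIF3c, a core subunit, had 129, 98.2 and 88.1 (105 ± 21.3) at a summit 30 bp upstream of its start. The other core subunits differed: eIF3a had 65.0, 47.7 and 43.0 (51.9 ± 11.6), at a summit 80 bp upstream of its start but 10 bp from that of CG1074, while eIF3b had no thresholded peak and ranked 6181 in the pooled list. eIF3k had 60.3, 23.4 and 41.6 (41.7 ± 18.4) with its summit 1 bp from the start. eIF3m was the weakest of all 19, with 29.0 and 45.0 in replicates 1 and 2 and no summit within 200 bp in replicate 3, where another promoter summit of 40.5 lay farther off. Its pooled signal of 107 ranked 3776.

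The threshold fell between eIF3m and eIF4A, whose promoter summit had a pooled signal of 105 and ranked 3898. At eIF4A, the RNA helicase of initiation, the replicates gave 53.1, 30.1 and 38.8, so its values overlapped those of the weaker thresholded genes. eEF1beta followed at rank 3945, with 23.0 and 43.4 in replicates 2 and 3 and no match in replicate 1. In all, 15 factor genes had a promoter summit in the pooled list but not in the thresholded one, at ranks 3898 to 23245. A pooled promoter summit was present at 65.4% of factor genes and a thresholded one at 36.5%, against 54.4% and 19.4% of all protein-coding genes.

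Of the 13 eIF4 genes, which recognise the mRNA cap and unwind the leader, 3 had a thresholded promoter peak (23.1%, against 19.4% of all protein-coding genes). The roles hold few genes, so no difference between roles is read from their counts. eIF4EHP, a cap-binding protein that represses translation in the Drosophila embryo, had 81.8, 74.6 and 83.1 (79.8 ± 4.59), at a summit 97 bp upstream of its start. A second eIF4EHP summit, 323 bp upstream and 53 bp from the start of CG18428, had 63.8, 44.4 and 14.2 (40.8 ± 25.0). eIF4G2, a scaffold protein copy needed in the male germ line, had 39.5, 64.5 and 45.2 (49.7 ± 13.1), at a summit 58 bp from both its own start and that of CG33111. eIF4E1, the main cap-binding protein, had 42.9, 39.0 and 28.9 (36.9 ± 7.22), with its summit 6 bp inside the gene. Of the 9 factor genes without a promoter summit in any list, 6 were eIF4 genes: eIF4B, eIF4E3, eIF4E4, eIF4E7, eIF4G1 and eIF4H2. The others were eIF3d2, eIF3g1 and eIF3g2.

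Leaving eEF1alpha for the elongation genes, in 5 of 6 sets of duplicated genes at least 1 copy had a promoter summit in the pooled list and at least 1 other copy had none. In the eEF1alpha set left out, both copies had one, at ranks 1060 and 10482. A pooled promoter summit was present at 54.4% of all protein-coding genes. How often sets of other genes differ in this way was not counted, so nothing is read from the number of sets. For the eIF4E family, eIF4E1 and eIF4EHP had thresholded promoter peaks, while eIF4E3, eIF4E4 and eIF4E7 had no promoter summit in any list. eIF4E5 had one only in replicate 1, of 15.5, and eIF4E6 only in replicates 1 and 3, of 19.5 and 27.4. For the scaffold, eIF4G2 had the peak and eIF4G1, the general form on chromosome 4, had no promoter summit in any list. The eIF4G2 summit is as near to the start of CG33111, and on chromosome 4 only 3.75% of all protein-coding genes had a thresholded promoter summit. For eIF4H, a helper of the helicase, eIF4H1 had a weak pooled summit of rank 16623, with 23.9 and 14.5 in replicates 1 and 3. Replicate 2 had an eIF4H1 promoter summit of 12.3, more than 200 bp from the pooled one. eIF4H2 had no promoter summit in any list. For eIF3d, eIF3d1 had 23.6, 16.7 and 30.5 at pooled rank 9395, and eIF3d2 had no summit in the gene or within 2 kb in any list. For eIF3f, eIF3f1 had 26.9, 21.0 and 43.6 at rank 4741, and eIF3f2 had a promoter summit only in replicate 3, of 18.0. Neither eIF3g1 nor eIF3g2 had a promoter summit in any list.

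Among the 8 elongation genes, 4 had a thresholded promoter peak, against 19.4% of all protein-coding genes. These 4 encode proteins of different function. eEF1gamma, which anchors the complex that recharges eEF1alpha, had 158, 123 and 176 (152 ± 27.1), with its summit 11 bp upstream of the start and no other gene start within 500 bp. The peak, chr3R:29220006-29220258, ranked 250. eEF2, which moves the ribosome along the mRNA, had 83.0, 85.1 and 103 (90.5 ± 11.3), with its summit 16 bp downstream of the inner of its 2 starts and 64 bp downstream of the outer one. eEF1alpha1, which delivers aminoacyl-tRNA, had 73.8, 65.1 and 98.1 (79.0 ± 17.1), at a summit 57 bp upstream of the nearest of its 4 starts and 930 bp downstream of the outermost. Its copy eEF1alpha2 had 16.1, 20.2 and 22.3 at pooled rank 10482, so the values of the copies did not overlap. eEF5, the hypusine-bearing factor that helps the ribosome past proline runs, had 70.5, 22.9 and 58.4 (50.6 ± 24.7), and replicate 2 was well below the others. eEF1delta had a match only in replicate 1, of 28.5, at pooled rank 21448. eEFSec, the selenocysteine factor, had a promoter summit in replicate 3 alone, of 22.8.

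**Figure D3:**
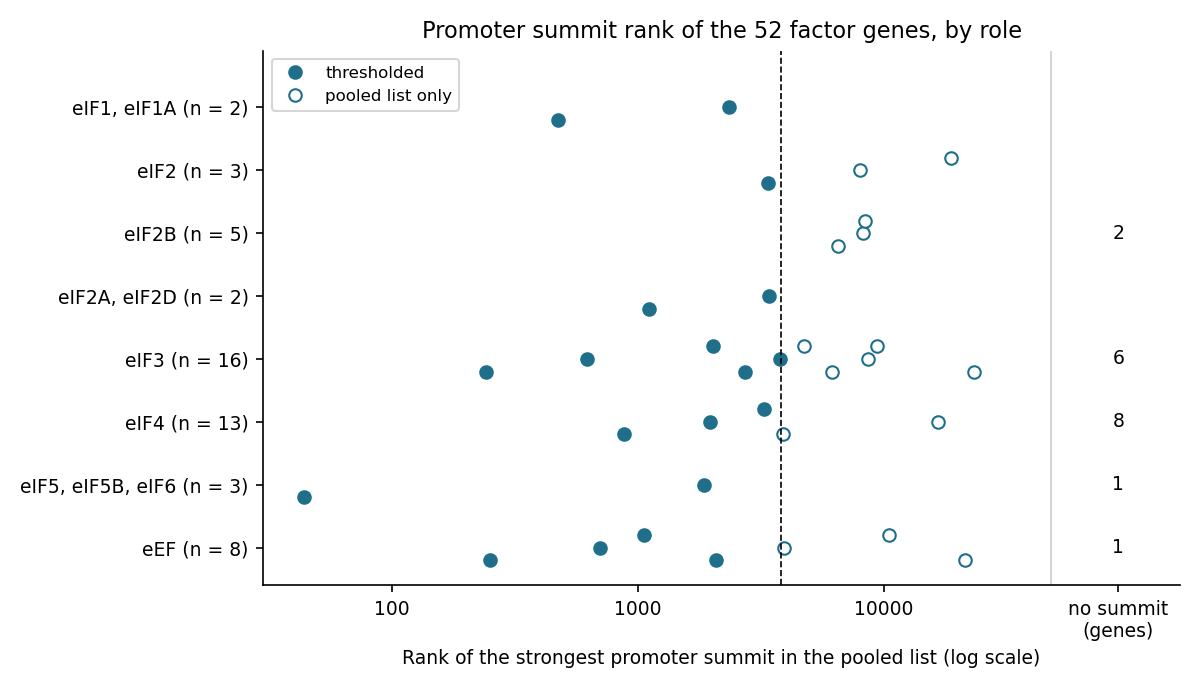
Rank of the strongest promoter summit of each of the 52 factor genes in the pooled list (horizontal log axis, strong peaks at the left), by role. Filled points are thresholded and open points are in the pooled list only. The dashed line marks rank 3833, and the right column counts genes without a pooled promoter summit. eIF6 stands at rank 44. Of the 13 eIF4 genes, 8 have no pooled promoter summit and 5 (38.5%) have one, against 54.4% of all protein-coding genes.

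Over the 19 genes, the pooled signal at the promoter peak had a median of 164 (107 to 1028), and 161 with the 3 second summits included, against 164 (106 to 2614) over all thresholded promoter peaks. The mean replicate signal of the 18 peaks found in all 3 lists had a median of 62.5 (36.3 to 343), against 55.0 (16.2 to 876) over all 2116 such peaks. Factor genes with a peak were thus near the middle of the list in strength. Their coefficient of variation over replicates had a median of 20.5%, against 21.2%, and the largest offset between replicate and pooled summit had a median of 39.5 bp, against 40.0 bp. Replicate 3 gave the highest of the 3 values at 11 of the 18 peaks, replicate 1 at 6 and replicate 2 at 1, as at eIF4G2. The signals of the 18 peaks correlated with a Spearman rho of 0.828 between replicates 1 and 2, 0.773 between 1 and 3 and 0.811 between 2 and 3. These peaks are among the strongest of the pooled list, which was made from the same 3 libraries, and were matched in all 3. The correlations are thus not independent of how the peaks were chosen.

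**Figure D4:**
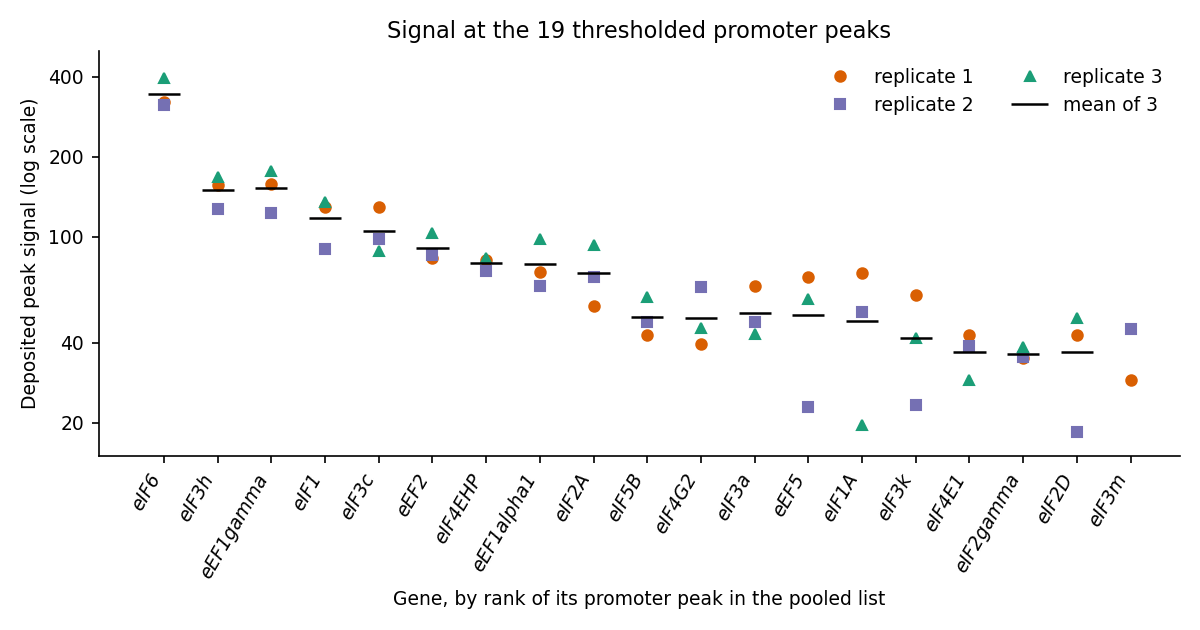
Deposited signal (log axis) in replicates 1, 2 and 3 at the promoter peak of each of the 19 factor genes with a thresholded promoter summit, ordered by pooled rank. Black lines are the mean of 3 replicates; eIF6 stands apart at 313 to 396, eIF1A and eEF5 show wide spreads, and eIF3m has values in replicates 1 and 2 only.

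The summits sat close to the starts. Of the 19 strongest summits, 13 lay upstream of the nearest start of the gene and 6 downstream, and 16 lay within 100 bp of it. Against the 5'-most start of each gene, 10 lay upstream and 9 downstream. All 22 promoter summits can be set beside the 2167 at any promoter: 68.2% of the 22 lay upstream of the nearest start, against 75.4%. Within 100 bp of it lay 77.3%, against 57.1%, and the median distance was 63.0 bp, against 84.0 bp. At 8 of the 19 summits the start of another protein-coding gene also lay within 500 bp. At eIF1 and eIF3a that other start was nearer, and at eIF2gamma and eIF4G2 it was as near. At eIF6 only an antisense RNA started there. The remaining 10 peaks, those of eEF1alpha1, eEF1gamma, eEF2, eEF5, eIF2A, eIF2D, eIF3c, eIF3k, eIF4E1 and eIF5B, had no other annotated start within 500 bp of the summit. Over the whole set, 10 of the 21 factor genes with another protein-coding start within 500 bp of their own had a thresholded promoter summit (47.6%), and 9 of the 31 without (29.0%). Over all protein-coding genes the shares were 35.7% and 12.1%. Another start within 500 bp was present at 40.4% of the factor genes and 30.9% of all genes, and its part in their share of peaks was not tested.

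**Figure D5:**
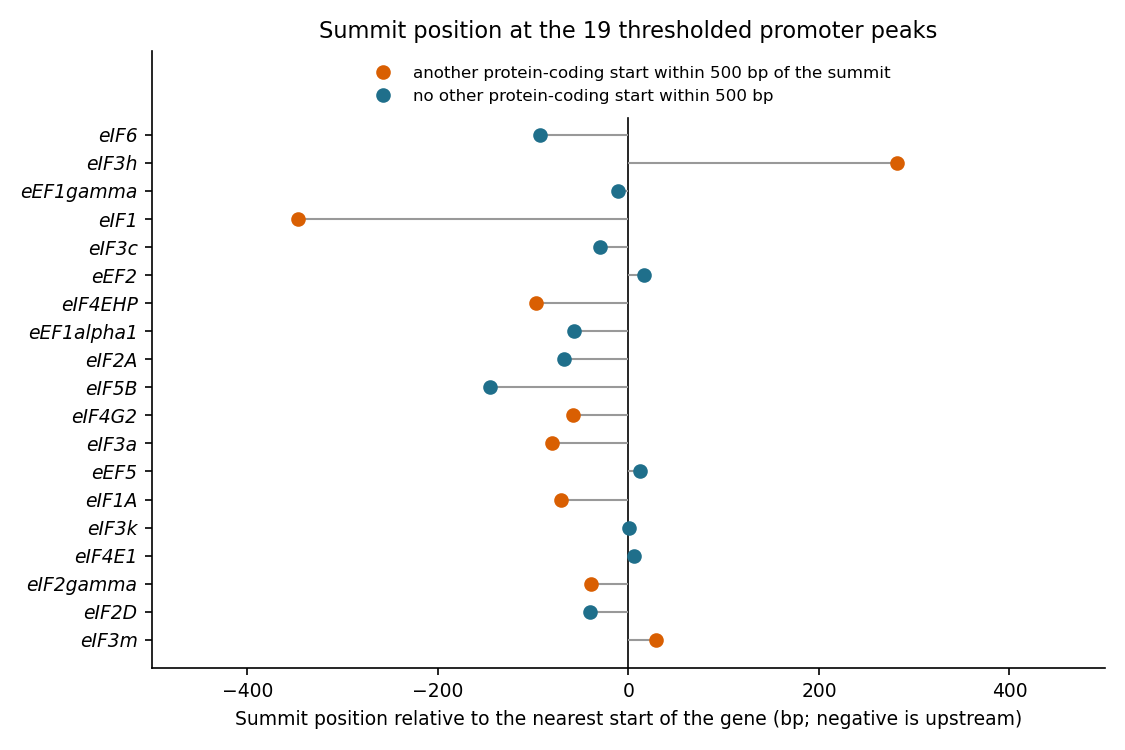
Distance of the summit from the nearest start of its own gene (horizontal axis, bp, negative is upstream) for the 19 thresholded promoter peaks, strongest at the top. Points near 0 are most common, 16 of 19 within 100 bp; eIF1 at -347 bp and eIF3h at 282 bp are the farthest, and both have another protein-coding start within 500 bp.

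For 6 factor genes the thresholded summits within reach lay outside their own promoters, and each of these summits had a start of a different gene within 500 bp. eIF2Bbeta lies next to 1 of the strongest peaks of the data, chrX:2703674-2704094, with 758, 823 and 932 (838 ± 88.1), 690 bp upstream of eIF2Bbeta and 29 bp from the start of Ugalt. At its own promoter eIF2Bbeta had 15.2 to 23.4. The eIF2Bgamma summit had 97.4, 108 and 96.5 (101 ± 6.60), 1269 bp upstream and 29 bp from the start of CG8187. Both summits of these eIF2B genes are thus near the start of a neighbour, and the genes' own promoters were weak or without a pooled summit. eIF3g1 had 48.9, 68.5 and 79.9 (65.8 ± 15.7) at the start of Smyd3. eIF2beta had 67.7, 41.2 and 74.5 (61.1 ± 17.6) near the start of ver, and eIF3j had 39.9, 31.4 and 39.1 (36.8 ± 4.67) at that of CG12134. eIF4A had 3 such summits. The strongest had 97.3, 97.3 and 77.5 (90.7 ± 11.4), 94 bp from the start of ifc. The other two lay 14 and 21 bp from starts of chic, with 30.8, 33.7 and 64.2 (42.9 ± 18.5) and 38.8, 17.4 and 55.8 (37.4 ± 19.2). Which gene a peak between close neighbours serves cannot be read from the lists.

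Factor genes with a promoter peak also held summits elsewhere. In the long eIF4EHP gene, a summit 9800 bp into the gene lay in an intron, with no other start within 500 bp, and had 74.9, 45.5 and 83.6 (68.0 ± 20.0). Another intronic eIF4EHP summit, at 3262 bp, lay 65 bp from the start of the nested gene Syx1A, with 52.7, 62.5 and 55.6 (56.9 ± 5.06). eIF5B held 2 intronic summits without another start within 500 bp, with 43.7, 82.0 and 29.5 (51.7 ± 27.1) and 30.1, 51.6 and 47.1 (42.9 ± 11.4). These 3 summits of eIF4EHP and eIF5B were the intronic ones without another start within 500 bp. eEF1alpha1 had 2 summits upstream of the gene. The one at 1475 bp had 57.0 and 102 in replicates 1 and 3 and no match in replicate 2, and the one at 1214 bp had 22.4, 58.2 and 52.4 (44.3 ± 19.2). In all, 40 thresholded summits lay in the 52 genes or within 2 kb, 22 of them at the genes' own promoters.

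Other genes of translation were counted from a list of release factors, partners and regulators that carry other names. The factor genes had a thresholded promoter summit in 36.5% of cases, and the listed genes in 7 of 19 (36.8%). The strongest was at larp, an RNA-binding protein of mRNAs for the translation machinery, at pooled rank 12, followed by pAbp, the poly(A)-binding protein, at 297 and Thor, the inhibitor of eIF4E1, at 795. The release factor eRF1 was at 1595, the helicase bel at 1808, the kinase Lk6 at 2097 and NAT1, an eIF4G-like protein, at 3182. The second release factor eRF3 was just outside the threshold at 4056. The kinases Gcn2 and PEK, which act on eIF2, had no thresholded promoter summit and ranked 5725 and 6917. Of 8 matched factors of mitochondrial translation, 0 had a thresholded promoter summit, the highest being mRF1 at rank 4459 and mEFTu2 at 4525. Cytoplasmic ribosomal protein genes had one in 62 of 92 cases (67.4%) and mitochondrial ribosomal protein genes in 21 of 73 (28.8%). The share of the factor genes lay between those of these 2 groups. Over all protein-coding genes it was 19.4%, and with 8 mitochondrial factors a count of 0 is not read as a result.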

How the data were processed

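ChIP-seq peak lists of 3 replicate libraries were used. Per the file lists that the authors deposited, a replicate list came from 1 library and a control, the pooled list from all 3 libraries and a control, and the thresholded list from these by irreproducible discovery rate. The sources used here do not give the aligner, the peak caller or that threshold. The signal of each peak is the value deposited by the authors, used only to describe and rank peaks within a list. Read depth is unknown, so no interval for signal was derived; shares have 95% Wilson intervals, which cover only counting error. Genes and starts came from Ensembl release 115, and sequence from the RefSeq copy of dm6. A summit was at a promoter within 500 bp of an annotated start. A replicate summit matched the pooled one within 200 bp, the nearest being taken. Coordinates are 1-based. Errors are SDs over 3 replicate lists and include differences in depth. No test was made, as there is 1 group. Counting was tested on simulated data with planted summits and motifs. The genes and lists were chosen with earlier results of these data known, and lists were counted, not tested. Values in every replicate are given for the 10 strongest promoter peaks, the strongest of each role, genes with summits only outside their promoters, genes next to the threshold and duplicated genes; others are included where shown. Alternatives were other windows, peak overlap, the 1000 strongest peaks, other matching and leaving out each replicate. Python 3.11.15, pandas 2.3.3, numpy 2.4.6, scipy 1.17.1 and matplotlib 3.10.9 were used.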

Additional observations from a re-analysis of the deposited data

How the results depend on the processing

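The count of factor genes with a thresholded promoter summit was 19 as reported (36.5%, against 19.4% of all genes). It was 18 with a window of 250 bp (34.6%, against 16.4%) and 21 with 1000 bp (40.4%, against 22.1%). With the 5'-most start it was 18 (34.6%, against 17.4%), and with peak overlap 20 (38.5%, against 20.7%). Only the 1000 strongest peaks gave 7 (13.5%, against 5.99%). The count in the gene or within 2 kb, 25 as reported, was 10 with no flank (19.2%, against 11.2%) and 10 with the 1000 strongest peaks (19.2%, against 11.6%), but 29 with 5 kb (55.8%, against 45.7%) and 25 with peak overlap (48.1%, against 34.0%). The promoter peak was found in all replicates used at 16 to 19 genes under other matching distances and at 18 to 19 with a replicate left out. The median signal of 62.5 ranged from 62.8 to 69.3 with 1 replicate left out and was 62.5 with the strongest matching summit. With a motif window of 200 bp the E-box lay near 18.2% of the 22 summits (against 6.32% of all) and GAGAG near 22.7% (against 43.7%), the DRE share was 18.2% at 50 bp (against 5.21%) and 36.4% at 200 bp (against 12.9%), and the Su(H) site share 4.55% (against 1.62%) and 18.2% (against 6.14%). The TCT share of 38.5% (against 22.4% of all genes) was 5.77% (against 0.932%) with the fuller consensus. No paired analysis was possible because all libraries belong to 1 group. Depth limits the weak summits, which cannot be judged without read counts.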

Other observations

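Factor genes were also split by their number of annotated starts. Of the 20 with 2 or more starts, 13 had a thresholded promoter summit (65.0%), and of the 32 with 1 start, 6 did (18.8%). Over all protein-coding genes the shares were 32.3% and 14.7%. More starts also cover more sequence with the window around each start, and its part in this difference was not tested. With the 5'-most start alone, 18 of all 52 factor genes were counted (34.6%, against 17.4% of all genes). That count was not split by the number of starts. By chromosome arm, the thresholded promoter summits were at 2 of 5 factor genes on 2L (against 18.6% of all genes there), 6 of 13 on 2R (19.9%), 4 of 11 on 3L (18.9%), 7 of 15 on 3R (21.0%), 0 of 7 on X (18.2%) and 0 of 1 on chromosome 4 (3.75%). The 7 factor genes on X were eIF2Bbeta, eIF2Bepsilon, eIF2alpha, eIF3g1, eIF4E7, eIF4H1 and eIF5.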
